A study of Mus musculus with 6 samples.

Results

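The genes described here are 10 genes of cartilage and joint matrix: Acan, Prg4, Comp, Matn2, Matn3, Matn4, Hapln1, Chad, Cilp and Chodl. They were chosen by gene symbol from a table of 55401 genes, and all 10 had a row of their own. The choice was made with earlier results of these data in view, the authors' fold changes among them, so the levels below are a description and carry no test. RNA had been sequenced from immortalised mouse embryo fibroblasts (iMEF) that live on a human ASH2L fused to the degradation tag FKBP12F36V. One group was untreated and the other received dTAG-13, a PROTAC that directs the tagged protein to the proteasome, for 24 h, with 3 samples listed for each. Both groups carry the inducible Cre-ER recombinase and floxed Ash2l alleles from which an exon had been deleted. The fusion gene came from a lentiviral construct, and the study ran this comparison on the single clone NG3. The time of 24 h comes from the sample titles, since the protocol text lists shorter exposures only. The table holds 1 mean normalized read count per gene over all libraries, next to the authors' own fold changes and p-values, and the latter were not used here. No difference between dTAG-13 and untreated cells is therefore given.

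Cartilage gets its stiffness from aggrecan, a large proteoglycan that binds the polysaccharide hyaluronan and is held there by a link protein. Fibrils of type II, IX and XI collagen trap these aggregates, and adaptor proteins such as the matrilins and COMP tie both together. At the joint surface lubricin keeps the opposing cartilages from wearing. In chondrocytes the transcription factor SOX9 is needed for the genes of the core matrix, while fibroblasts mainly make type I collagen.

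The promoters of Chodl, Acan and Matn3 are shown because these genes stood for the high, the near-absent and the middle level among members with a promoter entry in RefSeq (GRCm38.p6). Each window runs from 250 bases before to 50 bases after the start of that entry, and capitals mark CpG dinucleotides. For Acan and Hapln1 this start differs from the gene start of the GENCODE annotation used below. The Acan window ends before that gene start, at chr7:79053483. The windows lie at chr16:78930698-78930997 (plus strand) for Chodl, chr7:79052976-79053275 (plus strand) for Acan and chr12:8947679-8947978 (plus strand) for Matn3.
Chodl: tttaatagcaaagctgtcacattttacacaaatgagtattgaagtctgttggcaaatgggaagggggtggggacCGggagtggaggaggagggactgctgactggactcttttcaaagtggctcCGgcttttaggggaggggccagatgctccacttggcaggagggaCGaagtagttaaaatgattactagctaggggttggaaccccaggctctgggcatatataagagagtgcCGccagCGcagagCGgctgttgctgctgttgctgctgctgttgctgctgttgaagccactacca
Acan: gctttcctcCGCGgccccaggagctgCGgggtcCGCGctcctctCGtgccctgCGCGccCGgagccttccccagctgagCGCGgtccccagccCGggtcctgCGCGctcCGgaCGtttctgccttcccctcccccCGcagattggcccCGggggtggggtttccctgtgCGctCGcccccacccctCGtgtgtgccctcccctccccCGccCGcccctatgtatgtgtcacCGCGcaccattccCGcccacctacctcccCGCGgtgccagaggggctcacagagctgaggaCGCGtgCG
Matn3: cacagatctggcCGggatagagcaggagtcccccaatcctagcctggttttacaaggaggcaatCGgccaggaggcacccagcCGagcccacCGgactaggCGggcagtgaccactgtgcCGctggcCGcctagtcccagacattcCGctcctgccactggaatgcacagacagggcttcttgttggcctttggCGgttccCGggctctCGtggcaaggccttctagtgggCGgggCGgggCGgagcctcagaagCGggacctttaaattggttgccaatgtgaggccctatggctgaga
Acan had 31 CpG dinucleotides in its window, more than 89.4% of 32841 promoter windows of the same length, although its transcript was all but absent. Chodl had 6 CpG, close to the median of 7, and Matn3 had 15. An entry was present for 7 of the 10 members, in 8 windows, and not for Prg4, Comp and Matn2. The remaining windows held 13 CpG for Chad, 4 for Cilp, 3 for Hapln1, and 9 and 19 for the pair of starts of Matn4. The motif and the promoters shown were picked after the levels were seen. The letters ACAAAG or ACAATG, forms of the core recognised by SOX proteins, were searched on both strands and occurred in 0 of the 8 windows, against 28.6% of all windows.

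The levels of the members fell into a high and a low set. Prg4, Chodl and Matn2 lay above the median of 12.8 over the 24212 genes with reads, and they made up 98.9% of the summed level of all members. Matn3, Matn4, Hapln1, Comp and Acan lay below it, and Chad and Cilp were listed at 0. For comparison, 31.1% of 21897 protein-coding genes were at 0 and 50.1% reached a mean of 10, which 4 of the 10 members did. A mean over all libraries has no replicate error of its own, so no SD can be attached to the levels of single genes.

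**Figure D1:**
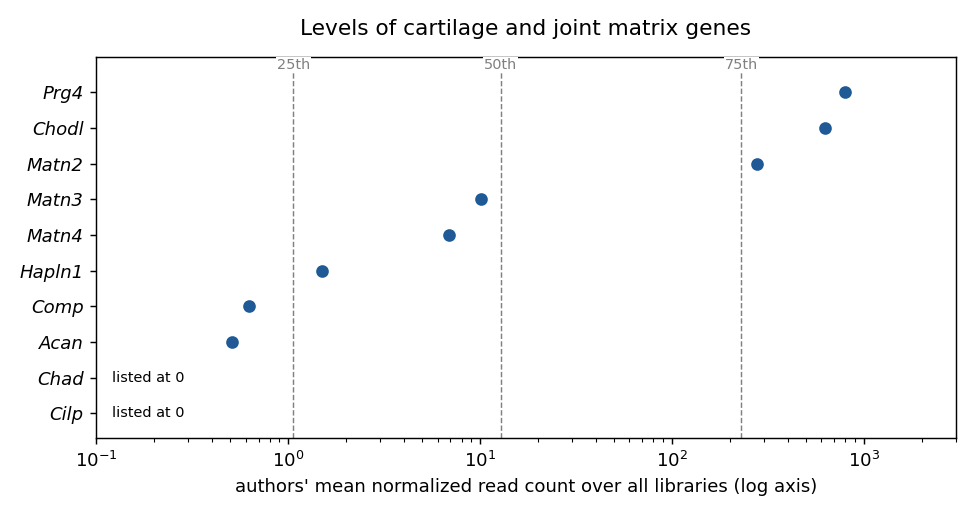
Authors' mean normalized read count over all libraries (x axis, log scale) for each member (y axis), with dashed lines at the quartiles of genes with reads. Prg4, Chodl and Matn2 lie between 276 and 795, right of the upper quartile of 230.1, and the remaining members with reads lie between 0.508 and 10.1.

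Prg4 encodes lubricin, the boundary lubricant of joint surfaces made by superficial chondrocytes and the synovial lining. It had the highest level of the members, with an authors' mean normalized count of 795 (ENSMUSG00000006014.16, GRCm38 chr1:150449412-150466165, minus strand). This was above 90.3% of all genes with reads, and above 90.1% when levels were divided by exon length. The exons of Prg4 share 204 bases with those of Tpr on the opposite strand, a nuclear pore gene with an authors' mean of 6176. The part of such shared reads in the level of Prg4 was not tested, and the sources disagree on whether the libraries kept the strand.

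Chodl encodes chondrolectin, a membrane protein with a C-type lectin domain. Its authors' mean normalized count was 625 (ENSMUSG00000022860.15, chr16:78930948-78951733, plus strand), above 87.7% of genes with reads. No other annotated gene overlapped it. In counts Prg4 stood 1.27-fold above Chodl, and 1.63-fold per kb of exon length. Spread between libraries is not known for either gene, so this order cannot be set against an error.

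The matrilins are adaptor proteins with von Willebrand factor A domains that join collagen fibrils and proteoglycans. Matn2, which is made in many connective tissues, was the abundant one, with an authors' mean normalized count of 276 (ENSMUSG00000022324.15, chr15:34306677-34436273, plus strand). Its exons share 70 bases with 9430069I07Rik on the opposite strand, whose own mean was 0.929. Matn3, found mainly in cartilage, had a mean of 10.1 (ENSMUSG00000020583.4, chr12:8947929-8972028, plus strand), and Matn4 one of 6.89 (ENSMUSG00000016995.17, chr2:164389393-164405160, minus strand). Matn4 shares 149 exonic bases with Rbpjl on the opposite strand, which had a mean of 0.278. The level of Matn2 was 27.4-fold that of Matn3 in counts and 13.2-fold per kb of exon length. Matn3 was 1.46-fold above Matn4 in counts and 2.51-fold per kb. Matn1, the matrilin most restricted to cartilage, was listed at 0.

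The reads behind the weakly expressed members could be separated by library. A mean of read counts divided by size factors keeps the worth of single reads, and 5 such values, here named libraries A to E, accounted for all 11987 genes with a mean of up to 12. In each of these genes exactly 1 combination of whole reads gave the printed mean, with a remainder of at most 5.0e-14. The labels list 6 samples, and nothing in the table ties a library to a sample or group. The 5 libraries are therefore given as single values and described side by side, with no test between them. Their letters follow the size factor, from 1.44 in A to 0.553 in E, and are no order in time or dose. Normalized values per library take the mean as one over 5 libraries. Intervals are exact 95% Poisson intervals and cover counting error only.

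Matn3 had 0 reads in library A, 8 in B, 12 in C, 15 in D and 9 in E. For a count of 0 a limit of 3 reads was set, which is a normalized value of 2.09 in A and of 5.43 in E. The exact 95% interval of a count of 0 runs further, to 3.69 reads. That is 2.57 in A and 6.67 in E. After normalization library A was at 0 for Matn3, with the limit of 3 reads at 2.09. Library B was at 5.86 (2.53 to 11.6) and C at 12.3 (6.38 to 21.6). Library D was at 15.9 (8.89 to 26.2) and E at 16.3 (7.44 to 30.9). Library A was thus the lowest for Matn3, but its exact interval, up to 2.57, overlapped that of B, from 2.53. Matn4 had 4 reads in A, 7 in B, 1 in C, 7 in D and 10 in E. Library E was the highest for Matn4, at 18.1 (8.67 to 33.3). The intervals of A and C, 0.759 to 7.13 and 0.0260 to 5.73, did not reach its lower end. The high value in E was not particular to Matn4. Library E was also the highest for Matn3, and for Col2a1, at 107 against 25.4 to 44.2 in the other libraries. For the hyaluronan synthase gene Has2 it was at 221 against 77.3 to 94.6, though its 122 reads were close to the 123 of B. A single read counted 1.81 in E, which has the smallest size factor, and 0.696 in A. The part of this scale in the high values of E was not tested. Cilp2 instead was highest in C, at 50.4, and Galnt3 in D, at 177. Matn3 lay above Matn4 in libraries B, C and D but below it in A and E. Only in C were the intervals of both genes apart, and the reads were 8 against 7 in B and 9 against 10 in E.

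The aggrecan aggregate was close to absent. Acan, the core protein of aggrecan (ENSMUSG00000030607.7, chr7:79053483-79115099, plus strand), had 2 reads in all, 1 in library B and 1 in E. Its authors' mean of 0.508 was above 16.7% of genes with reads in counts, and above 2.87% per kb, since its exons span 7.47 kb. Hapln1, the link protein that locks aggrecan onto hyaluronan (ENSMUSG00000021613.9, chr13:89539796-89611652, plus strand), had 6 reads, 3 in A and 3 in E, for a mean of 1.50. With so few reads, differences between libraries were not detectable for either gene.

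Comp, the pentameric matrix protein of cartilage and tendon (ENSMUSG00000031849.9, chr8:70373558-70382066, plus strand), had 3 reads in A, 1 in C and none elsewhere, for an authors' mean of 0.623. Chad, a leucine-rich protein through which chondrocytes attach to the matrix (ENSMUSG00000039084.8, chr11:94565047-94569127, plus strand), had no read in any library. The same held for Cilp, a secreted protein of the middle zone of cartilage (ENSMUSG00000042254.14, chr9:65265180-65280605, plus strand). With 0 reads the limit of 3 reads for both genes ran from 2.09 in A to 5.43 in E. All 10 housekeeping genes looked at, a list made after the levels were seen, had reads, the lowest with a mean of 138. Genes at such levels could not be at 0, so they say nothing about the 0 of Chad and Cilp.

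**Figure D2:**
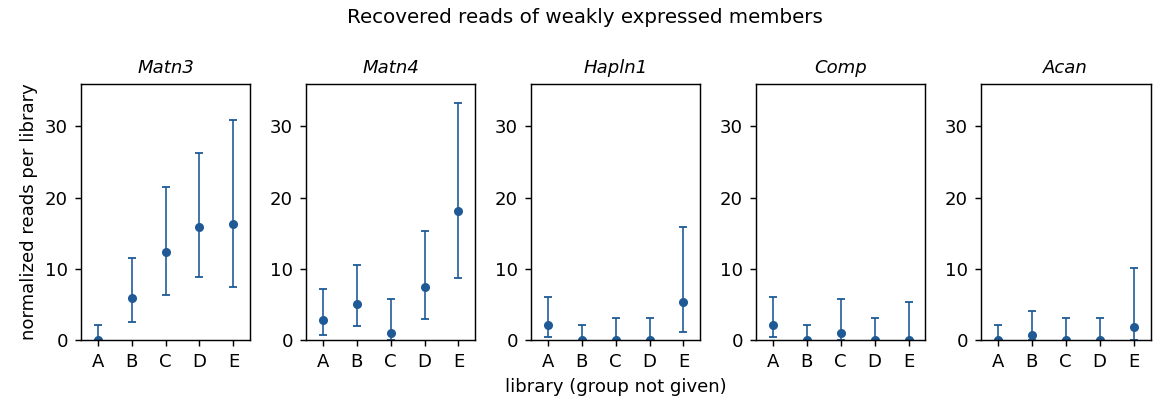
Normalized reads (y axis) of the 5 weakly expressed members in libraries A to E (x axis), whose groups are not given; points are single libraries and bars exact 95% Poisson intervals or, at 0 reads, the range up to the limit of 3 reads. Matn3 runs from 0 in library A to 16.3 in E, Matn4 from 1.03 in C to 18.1 in E, and Hapln1, Comp and Acan have 3 reads or fewer in every library.

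The low levels of Acan, Hapln1 and Comp stood beside a high level of Sox9. In counts, the fibril collagen genes Col11a1, Col11a2 and Col2a1 lay above the median of all genes with reads. Per kb, Col2a1 lay below the median, at 5.25 against 6.48. The median of protein-coding genes with reads was 125 in counts, and Col2a1 and Col11a2 lay below it. Sox9 had an authors' mean normalized count of 7658, above 99.5% of genes with reads, and it stood 158-fold above Col2a1, the type II collagen gene, in counts and 353-fold per kb. Over Acan the ratio was 15064 in counts, with a counting interval of 4170 to 124389 because it rests on 2 reads of Acan, and 27210 per kb (7533 to 224682). These pairs of genes were picked after their values were seen. Col2a1 itself had a mean of 48.5, with 51 reads in A, 42 in B, 43 in C, 24 in D and 59 in E, so it was detected in each library. Prg4 stood 16.4-fold above Col2a1 in counts and 35.4-fold per kb. Versican (Vcan), the hyaluronan-binding proteoglycan of loose connective tissue, had a mean of 2088 and a ratio over Acan of 4107 in counts (1137 to 33910.1) and of 2121 per kb (587 to 17513).

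Beyond the members, 61 of 70 other cartilage genes had reads and 41 reached a mean of 10. In shares, 58.6% reached a mean of 10 and 12.9% were at 0, against 50.1% and 31.1% of protein-coding genes. The share of 50.1% is also the one to set beside each role group below, and no difference from it was tested. These genes were grouped by role. Genes of aggrecan synthesis, among them chain-building and sulfation enzymes, a sulfate transporter and the glycosyltransferase gene Galnt3, had 9 of 10 at a mean of 10 or more, led by the chondroitin synthesis genes Chsy1 (1307) and Chpf (932) and the sulfate donor enzyme gene Papss1 (877). Proteases that cut aggrecan and COMP had 6 of 7 members at that level, with Adamts5 at 5247, Adamts1 at 2951 and Adamts12 at 168. Adamts5 is the main aggrecanase of mouse cartilage. Its ratio over Acan, which rests on 2 reads of Acan, was 10322 in counts (2857 to 85228) and 7144 per kb (1978 to 58991). Regulators of chondrocytes reached a mean of 10 in 7 of 13 cases, with Trps1 at 1554 and Runx2 at 600.0 after Sox9, while Nkx3-2 and Foxa2 were listed at 0.

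Cartilage collagens reached it in 4 of 8 cases, with Col11a1 at 1248, Col27a1 at 698 and Col11a2 at 57.8, while Col9a1, Col9a2 and Col9a3 had means of 1.50, 1.73 and 3.35. Among hyaluronan-binding proteoglycans, link proteins and hyaluronan genes it was 4 of 10. The hyaluronan receptor gene Cd44 had a mean of 3133 and the hyaluronan synthase gene Has2 one of 115, and the link protein gene Hapln2 was listed at 0. Other matrix genes had 5 of 12 at that level. Ccn2, a matricellular growth factor, was at 5569, the mineralisation inhibitor Mgp at 1741 and the collagen-binding proteoglycan Fmod at 97.1, against 5 genes listed at 0, namely Matn1, Cnmd, Snorc, Epyc and Scrg1. Of the joint formation genes 6 of 10 reached it, led by Creb5 (276), a factor known to drive Prg4 in superficial chondrocytes, Cd248 (155) and Osr1 (139), and Barx1 was listed at 0.

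**Figure D3:**
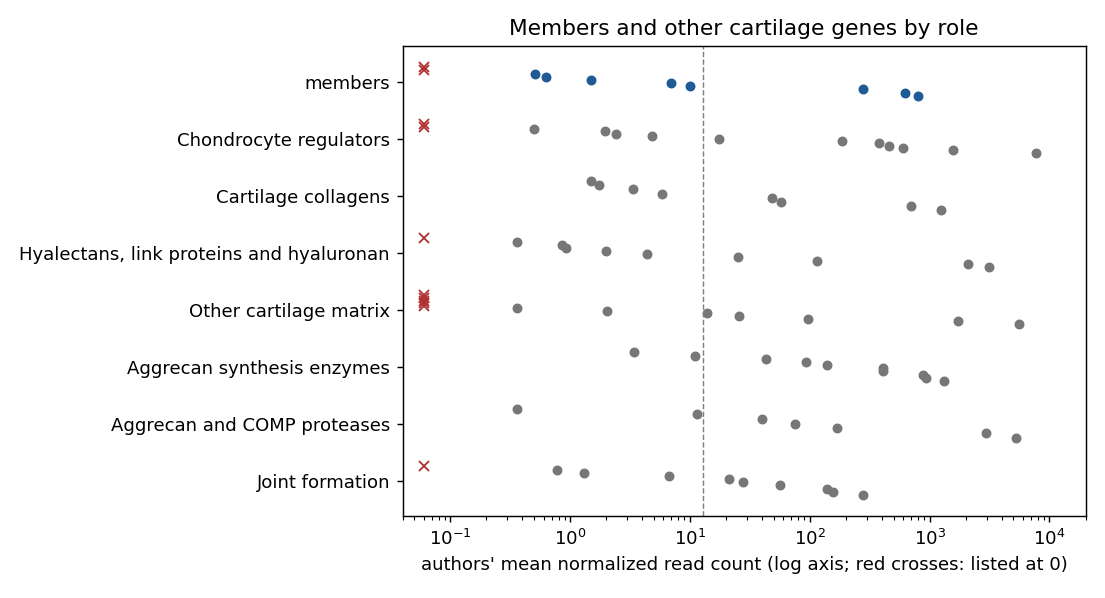
Authors' mean normalized read count (x axis, log scale) of the members and of 70 other cartilage genes, grouped by role (y axis); crosses are genes listed at 0 and the dashed line is the median of 12.8 over genes with reads. Genes of aggrecan synthesis reach a mean of 10 in 9 of 10 cases, while other cartilage matrix genes include 5 at 0. Of all protein-coding genes 50.1% reach a mean of 10 and 31.1% are at 0.

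The labelled cell type was checked by its markers. Of 12 fibroblast markers all had reads and 10 reached a mean of 10, led by Col1a2 at 109792, Col1a1 at 86116 and Vim at 36949, whereas Dcn and Lum were low at 5.68 and 1.73. Of 7 chondrocyte markers 5 had reads, and besides Sox9, Col2a1 and Col11a2 they were low, with Col10a1 at 5.80, Col9a1 at 1.50, and Matn1 and Snorc at 0. Tendon markers were all present, with a summed level of 1515, most of it from Scx at 1366. Mkx was at 86.4 and Tnmd at 62.6. Summed levels were 2.62 for 4 osteoblast, 5.91 for 3 muscle, 7.32 for 4 epithelial, 5.26 for 3 endothelial and 26.0 for 3 blood markers. In bulk RNA, fewer cells of a type and less RNA per cell cannot be told apart.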

How the data were processed

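The labels list RNA of iMEF from 3 untreated and 3 dTAG-13 samples (24 h), grouped by title. The study's figure legend speaks of 2 replicates, and the deposited mean resolved into 5 libraries, so which samples entered it is not settled. According to the methods, the authors used Trim Galore for trimming, STAR for alignment (mm10, which is GRCm38), featureCounts for counting per gene, ERCC spike-ins for normalization and DESeq2 for the comparison; versions were not given in the sources used here. The deposited signal is the authors' mean over all libraries of counts divided by size factors. The other deposited columns, and both shorter lists, hold the authors' log2 fold changes, standard errors and p-values for dTAG-13 over untreated; they are the authors' own comparison and were not used, so no group test was run. The labels name a whole-transcript kit and the methods a 3′ end kit. Counts favour long transcripts only in the former, so levels are given as counts and per kb of exon length (GENCODE M21, which placed 55141 of 55401 genes).

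Reads per library were recovered in Python 3.11.15 (numpy 2.4.6, pandas 2.3.3, scipy 1.17.1, matplotlib 3.10.9) as whole-number combinations of 5 unit values, each a mean under 0.5 shared by at least 300 genes, and tested on simulated data. Depth per library is unknown. Members and gene lists were chosen with earlier results of these data known. Named genes were all members, and the 3 highest genes and all genes at 0 of each role group. Of the markers, the 3 highest fibroblast genes and all chondrocyte genes were named. Dcn, Lum, Col9a2, Col9a3, Scx, Mkx and Tnmd were named after their values were seen.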

Additional observations from a re-analysis of the deposited data

How the results depend on the processing

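The number of members above the median level was 3 in counts, per kb of exon length, against genes with a mean of at least 1 or at least 10, and against protein-coding genes only. Of 26 recomputed percentiles of single members, 25 moved by more than their binomial interval, because each used another set of genes or another scale. Reads per library had 1 solution for 7 members. This held with a tolerance 10 times wider and with unit values taken from a part of the same weak genes. With a tolerance 10 times narrower, which lies below the rounding of the printed means, it held for 3. Prg4, Chodl and Matn2 had 112, 44 and 3 solutions, so their reads per library are not given. Of the 70 other cartilage genes 61 had reads, 54 reached a mean of 1 and 41 a mean of 10. Leaving out 1 library at a time gave means of 8.52 to 12.6 for Matn3, 4.09 to 8.35 for Matn4, 0.522 to 1.88 for Hapln1, 0.257 to 0.779 for Comp and 0.183 to 0.635 for Acan. The lowest values came without library E for Matn3, Matn4, Hapln1 and Acan and without A for Comp. Leaving out a library could not be run for the count above the median, since strongly expressed genes have more than 1 solution.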

Other observations

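Recovered reads of some other cartilage genes fell into separate clusters of libraries, and these genes were picked after their values were seen. Sox5, a partner of SOX9, had 27 reads in library A, 1 each in B, C and D, and 36 in E. Galnt3, a glycosyltransferase gene, had 11 in A, 139 in B, 145 in C, 167 in D and 16 in E. Erg, a factor of the developing joint, had 81 in A, 19 in B, 11 in C, 17 in D and 102 in E. In these genes A and E lay on one side and B, C and D on the other. This also held after normalization, but A and E then differed. Library E was at 65.1 and A at 18.8 for Sox5, 28.9 and 7.66 for Galnt3, and 185 and 56.4 for Erg. Among the members Hapln1 had 3 reads in A, 3 in E and none in B, C and D. Col9a1 had the same reads, and Col9a2 had 2 in A and 4 in E. With so few reads, a division of the libraries was not detectable in any of them. Matn3, with 0 reads in A and 9 in E, and Matn4, with 4 in A and 10 in E, did not place A and E on one side. Which of the libraries had received dTAG-13 is not given, so the clusters were not tied to a treatment and not tested.

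The worth of a read showed an exact relation between libraries D and E. A sum of 316 reads in D equalled 185 reads in E within 6.9e-14 of the mean. Of the 3 solutions for Matn2, 2 differed by just this exchange, with 180 reads in A, 350 in B and 329 in C in both, and either 12 in D and 357 in E or 328 in D and 172 in E. The last had 1102 in A, 40 in B, 260 in C, 65 in D and 136 in E.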
